A study of Mus musculus with 6 samples.

Results

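Reference genes for quantitative PCR are the yardstick against which other transcripts are measured, and 8 of them are described here across 3 mouse melanoma lines: *Hprt*, *Actb*, *Tbp*, *Ppia*, *Ywhaz*, *Tfrc*, *Polr2a* and *Pgam5*. Members were taken by gene symbol from the deposited expression table, where all 8 were found among 23951 genes. The set was chosen on 1 measured value, the FPKM of *Hprt*, the gene that normalised the qPCR of the study, because it differed between the lines. The values of *Hprt* are therefore given as a description with no test. The other 7 genes are references in common use whose own values the rule did not use, although earlier results of these data were known when the set was made. RNA was sequenced from untreated cultured cells, with 2 libraries for each of the lines B16-F1, B16-F1R2 and also B16-F1R2L. B16-F1 is a line of low metastatic potential obtained from a cell repository, B16-F1R2 came from a lymph node metastasis, and B16-F1R2L came from a lung metastasis of the lymph node line. Both derived lines were provided by a laboratory, unlike B16-F1, and an effect of the provider cannot be told apart from one of the line. Whether paired libraries of a line were grown separately is not in the labels, so p-values measure the spread between these libraries only, which may be technical.

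In qPCR, the amount of a target transcript is read against that of a reference transcript in the same sample, and the delta-deltaCT calculation takes the reference to be equal in the samples compared. Genes used for this purpose serve in processes that nearly every cell needs. Hypoxanthine-guanine phosphoribosyltransferase (*Hprt*) salvages purine bases, beta-actin (*Actb*) forms filaments of the cytoskeleton, and the TATA-binding protein (*Tbp*) and the largest subunit of RNA polymerase II (*Polr2a*) belong to the transcription machinery. Cyclophilin A (*Ppia*) is a prolyl isomerase that assists protein folding, *Ywhaz* encodes the zeta form of the 14-3-3 adaptor proteins, the transferrin receptor (*Tfrc*) brings iron into the cell, and *Pgam5* encodes a protein phosphatase of the mitochondria.

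On the NCBIM37 (mm9) build that the authors aligned to, *Hprt* lies on chromosome X from 50341314 to 50374836 on the plus strand, with 9 exons in a single annotated transcript of 1289 bases. *Actb* (chromosome 5, 143664794 to 143668433) and *Pgam5* (chromosome 5, 110688149 to 110698932) lie on the minus strand, as do *Ywhaz* (chromosome 15, 36700525 to 36724302) and *Polr2a* (chromosome 11, 69547499 to 69572139). *Ppia* (chromosome 11, 6315446 to 6319820), *Tbp* (chromosome 17, 15636852 to 15665343) and *Tfrc* (chromosome 16, 32609006 to 32632880) lie on the plus strand. All 8 are annotated as protein-coding, with values given over the whole gene.

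The RefSeq promoter table (GRCm38.p6, another build than that of the expression table) held 5 of the 8 genes. The 250 bases before the start site are shown for the study's reference, for the 2 genes whose level differed least between the lines, *Polr2a* and *Ppia*, and for the gene whose level differed most, *Tfrc* (the first of its 2 listed starts). Capitals mark the GC box GGGCGG, the TATA motif TATAAA and the CCAAT motif, each searched on both strands. Of 32536 such windows of the same length, 33.0% held a GC box, 12.3% a TATA motif and 33.8% a CCAAT motif.
Hprt, chrX:52987828-52988077, plus strand: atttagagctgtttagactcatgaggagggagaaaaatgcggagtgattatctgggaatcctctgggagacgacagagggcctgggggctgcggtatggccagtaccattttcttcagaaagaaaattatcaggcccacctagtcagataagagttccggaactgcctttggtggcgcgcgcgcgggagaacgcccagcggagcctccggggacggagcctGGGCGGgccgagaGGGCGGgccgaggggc
Ppia, chr11:6415617-6415866, plus strand: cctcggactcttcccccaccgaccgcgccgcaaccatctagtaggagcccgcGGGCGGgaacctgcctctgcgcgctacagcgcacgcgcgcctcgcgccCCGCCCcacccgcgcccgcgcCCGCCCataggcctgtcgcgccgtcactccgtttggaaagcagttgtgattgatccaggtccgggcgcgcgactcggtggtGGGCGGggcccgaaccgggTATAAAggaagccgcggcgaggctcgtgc
Polr2a, chr11:69758634-69758883, minus strand: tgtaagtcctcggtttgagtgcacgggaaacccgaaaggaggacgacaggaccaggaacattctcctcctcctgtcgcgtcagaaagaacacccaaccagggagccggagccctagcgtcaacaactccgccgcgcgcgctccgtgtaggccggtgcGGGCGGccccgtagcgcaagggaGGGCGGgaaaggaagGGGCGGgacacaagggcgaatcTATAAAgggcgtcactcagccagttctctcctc
Tfrc, chr16:32608646-32608895, plus strand: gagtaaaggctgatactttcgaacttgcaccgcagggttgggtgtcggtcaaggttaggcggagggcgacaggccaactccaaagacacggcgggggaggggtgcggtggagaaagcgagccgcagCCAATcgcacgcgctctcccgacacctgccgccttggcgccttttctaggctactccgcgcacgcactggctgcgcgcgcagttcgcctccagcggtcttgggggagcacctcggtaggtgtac

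The window of *Hprt* held 2 GC boxes and neither of the other motifs. Those of *Ppia* and *Polr2a* held 1 TATA motif each, with 4 and 3 GC boxes. The first *Tfrc* window held 1 CCAAT motif and no GC box, whereas the window of its second start (chr16:32608872-32609121) held 1 GC box. That of *Tbp* (chr17:15499638-15499887) held 1 GC box and neither of the other motifs. Guanine and cytosine made up between 52.0% (*Tbp*) and 72.4% (*Ppia*) of these windows. *Actb*, *Ywhaz* and *Pgam5* had no entry. A match of letters is a description of the window only.

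Expression was given as FPKM, a fragment count scaled by transcript length and by library size, so levels can be compared between genes per length. Estimated depth was 12700000 to 14900000 reads per library, read from the step between low values of genes with 1 transcript, since no read counts were used here. Of 23951 genes, 11379 reached 1 FPKM in at least 2 libraries and were tested, all 8 reference genes among them. The 7 melanocyte markers found in the table were at 1 FPKM or above in every library, and their summed FPKM was 14970 to 15007 in B16-F1, 7909 to 8125 in B16-F1R2 and 8924 to 8933 in B16-F1R2L. The markers did not all move together. In B16-F1R2L against B16-F1, *Mitf* was higher by 0.40 on the log2 scale, and the other 6 were lower. Markers of fibroblasts, leukocytes, endothelium and epithelium summed to at most 2.85 FPKM per list in any library. In bulk RNA, fewer cells of a type and less RNA per cell cannot be told apart.

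**Figure D1:**
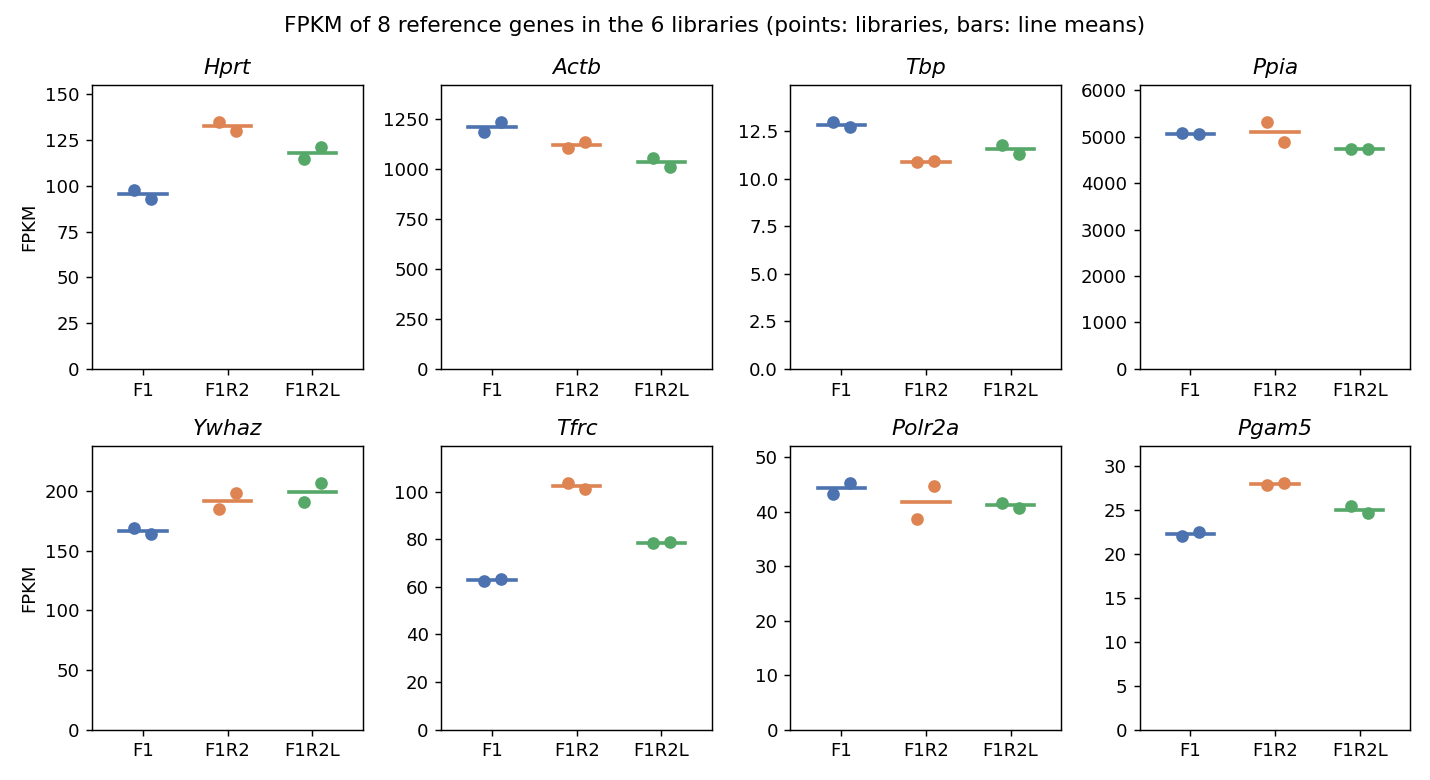
FPKM of each of the 8 reference genes on a linear axis from 0, with 1 point per library and a bar at the mean of each line (F1, F1R2 and F1R2L stand for B16-F1, B16-F1R2 and B16-F1R2L). The 2 B16-F1 points of *Hprt* (97.9 and 93.0) and of *Tfrc* (62.5 and 63.3) lie below all others of the same gene, whereas those of *Ppia* fall between the 2 B16-F1R2 points.

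*Hprt*, the reference of the study, was measured at 97.9 and 93.0 FPKM in B16-F1, 135 and 129.9 FPKM in B16-F1R2, and 115 and 121 FPKM in B16-F1R2L. The lines did not overlap: B16-F1 was the lowest, B16-F1R2L intermediate and B16-F1R2 the highest. How many of all tested genes separate in this way is not given here. The means were 95.4 ± 3.47, 132 ± 3.48 and 118 ± 4.76 FPKM (SD, n = 2), so that B16-F1R2 exceeded B16-F1 by 38.7% and B16-F1R2L exceeded it by 23.5%. On the log2(FPKM + 0.1) scale, used for every difference between lines here, B16-F1R2 exceeded B16-F1 by 0.47 and B16-F1R2L exceeded B16-F1 by 0.30. B16-F1R2L lay below B16-F1R2 by a difference of -0.17. In size, 71.4% of all tested genes changed less than *Hprt* between B16-F1R2 and B16-F1, and 54.1% changed less between B16-F1R2L and B16-F1. The log2 difference of B16-F1R2 from B16-F1 ranged from 0.43 to 0.51 over 16 alternative settings. That of B16-F1R2L from B16-F1R2 was -0.059 when each library was rescaled to the same sum and -0.099 after quantile normalization. No stretch of 50 bases in the *Hprt* transcript, of 1240 examined, was found elsewhere in the genome. This search and those for other genes below took identical stretches only, whereas the alignment allowed 2 mismatches.

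The other 7 genes were tested with limma across all 11379 genes at a Benjamini-Hochberg adjusted p under 0.05. Between B16-F1R2 and B16-F1, 4 of the 7 passed, with *Tfrc*, *Pgam5* and *Ywhaz* higher and *Tbp* lower, beside 55.4% of all tested genes (28.2% higher, 27.2% lower). Between B16-F1R2L and B16-F1, 4 of the 7 passed, with *Tfrc*, *Pgam5* and *Ywhaz* higher and *Actb* lower, beside 56.7% of all tested genes (29.5% higher, 27.1% lower). *Tfrc* was the 1 gene of the 7 that passed between B16-F1R2L and B16-F1R2, where it was lower, beside 22.6% of all tested genes (12.1% higher, 10.5% lower). The shares among the 7 were near those of all genes in the first 2 comparisons, and the 3 comparisons share libraries. In the first comparison 2 of the 7 passed when B16-F1 replicate 1 was left out, and 2 when B16-F1 replicate 2 was, whereas 6 passed after quantile normalization. In the second, 2 passed without B16-F1 replicate 1 and 1 without B16-F1 replicate 2. When libraries were rescaled to the same sum, 3 of the 7 passed in the second comparison, all of them higher, against 75% higher as deposited.

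**Figure D2:**
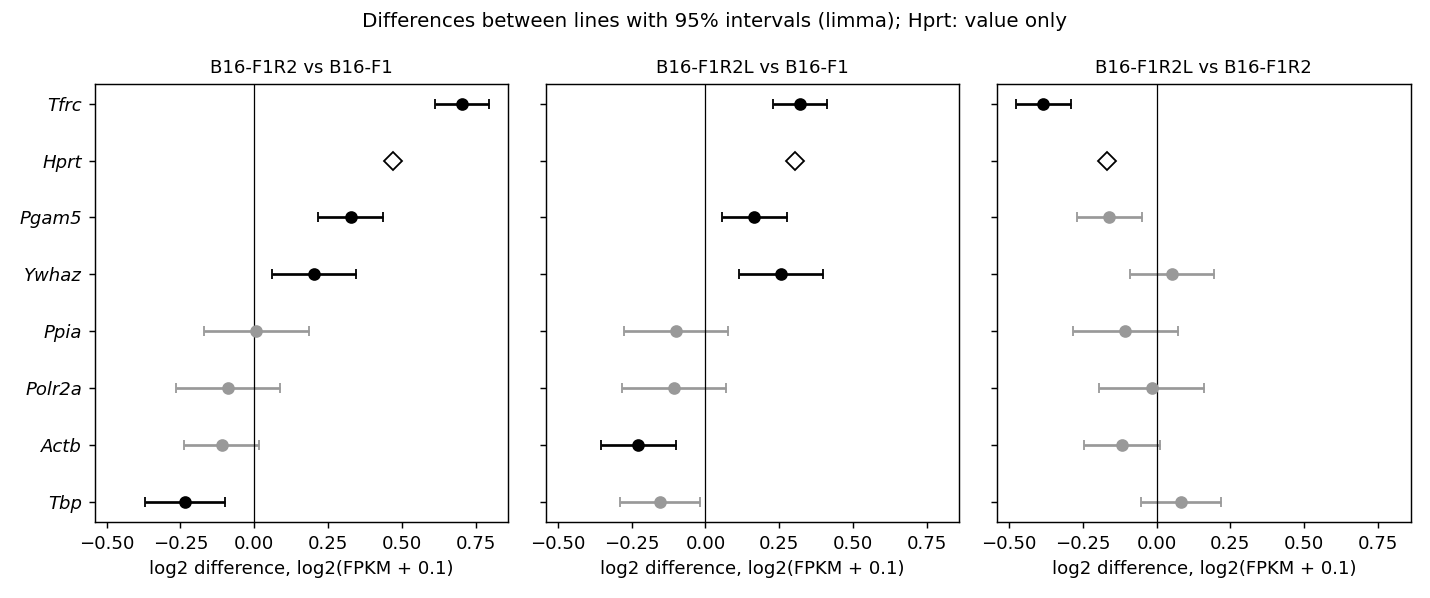
Log2 differences of each reference gene in the 3 comparisons, on the log2(FPKM + 0.1) scale, with 95% intervals from limma. Black points had an adjusted p under 0.05, grey points did not, and the open diamonds of *Hprt* (0.47, 0.30 and -0.17) carry no interval because its difference chose the set; *Tfrc* lies farthest from 0 in each panel.

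Most genes of purine metabolism, in which *Hprt* acts, were higher in B16-F1R2. Of 22 tested genes of purine synthesis and salvage, 17 rose and 1 fell in B16-F1R2 against B16-F1, beside 28.2% and 27.2% of all tested genes. The median log2 difference was 0.37, against 0.0046 for all genes. Over the alternatives 15 to 18 rose. *Aprt*, the salvage enzyme for adenine, was measured at 92.3 and 97.4 FPKM in B16-F1, 182 and 173 FPKM in B16-F1R2, and 137 and 122 FPKM in B16-F1R2L (log2 difference of B16-F1R2 from B16-F1 0.91, limma adjusted p = 8.0e-05). *Adssl1*, the muscle form of adenylosuccinate synthase, was measured at 3.27 and 3.60 FPKM in B16-F1, 26.2 and 28.02 FPKM in B16-F1R2, and 42.1 and 43.9 FPKM in B16-F1R2L. *Ampd3*, an AMP deaminase, rose by 1.08, whereas *Ampd2*, a deaminase of the same family, was the gene that fell (-0.53, named after its value was seen).

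In B16-F1R2L against B16-F1, 11 of the 22 purine genes rose and 2 (*Ampd2* and *Atic*) fell (all genes, 29.5% and 27.1%), and 7 rose without B16-F1 replicate 1. Against B16-F1R2, 12 fell and 1 (*Adssl1*) rose, beside 10.5% and 12.1% of all genes. That count of 12 was 1 without B16-F1R2 replicate 1, 7 without B16-F1R2 replicate 2, 2 without B16-F1R2L replicate 2, 6 after rescaling to the same sum and 7 with no variance trend.

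*Tfrc*, whose transcript is stabilised by iron regulatory proteins when iron is scarce, showed the widest difference of the 8. It was measured at 62.5 and 63.3 FPKM in B16-F1, 104 and 101 FPKM in B16-F1R2, and 78.3 and 78.8 FPKM in B16-F1R2L. No 2 lines overlapped, and the order of the lines was that seen for *Hprt*. The mean of B16-F1R2 exceeded that of B16-F1 by 63.0% (log2 difference 0.70, SE 0.04, limma adjusted p = 2.8e-05). That of B16-F1R2L exceeded it by 24.9% (log2 difference 0.32, SE 0.04, limma adjusted p = 6.9e-04). Against B16-F1R2, B16-F1R2L was lower, with a log2 difference of -0.38 (SE 0.04, limma adjusted p = 0.0037). All 3 calls held in each of the 16 alternatives.

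Among 13 tested genes of iron uptake, storage and sensing, 2 rose and 5 fell in B16-F1R2 against B16-F1, near the 55.4% called among all genes, with a median log2 difference of -0.049 beside 0.0046 for all genes. *Slc40a1*, which encodes the iron exporter ferroportin, was measured at 1.86 and 1.78 FPKM in B16-F1, 49.3 and 54.8 FPKM in B16-F1R2, and 51.2 and 54.7 FPKM in B16-F1R2L, and rose with a log2 difference of 4.77. *Ncoa4*, the receptor for ferritin breakdown, was the other gene that rose (log2 difference 0.26). *Slc11a2*, an importer of ferrous iron, fell by 0.63 and *Hfe*, a partner of the transferrin receptor, fell by 0.44 on the log2 scale. The other genes that fell were *Steap3* (-0.33), *Aco1* (-0.26) and *Pcbp2* (-0.26), named here with *Ncoa4* after their values were seen. The calls of *Steap3* and *Aco1* were lost without B16-F1 replicate 2. That of *Steap3* was also lost without B16-F1R2 replicate 2, and that of *Aco1* without B16-F1R2 replicate 1. With 1 library left out, *Steap3* ranged from -0.37 to -0.28 and *Aco1* from -0.29 to -0.22. In B16-F1R2L against B16-F1, 2 genes rose and 5 fell as well (all genes, 56.7% called), or 1 and 3 when either B16-F1 library or B16-F1R2L replicate 2 was left out, and 3 fell after quantile normalization.

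*Pgam5* was measured at 22.0 and 22.5 FPKM in B16-F1, 27.8 and 28.1 FPKM in B16-F1R2, and 25.4 and 24.6 FPKM in B16-F1R2L. Its lines did not overlap and stood in the order of *Hprt* and *Tfrc*. The mean of B16-F1R2 exceeded that of B16-F1 by 25.5% (log2 difference 0.33, SE 0.05, limma adjusted p = 0.0014), and this call held in all 16 alternatives. That of B16-F1R2L exceeded it by 12.3% (log2 difference 0.17, SE 0.05, limma adjusted p = 0.021), a call lost without B16-F1 replicate 1 (adjusted p = 0.12), B16-F1 replicate 2 (0.074) or B16-F1R2L replicate 1 (0.068). The log2 difference of B16-F1R2L from B16-F1R2 was -0.16 (SE 0.05, limma adjusted p = 0.0505), which passed with a pseudocount of 0.01, a minimum of 5 FPKM or median ratio scaling. After rescaling to the same sum it was -0.052 (limma adjusted p = 0.53), and that from B16-F1 was 0.27.

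Of 8 tested genes of the phosphoglycerate mutase family and partners of PGAM5, 3 rose and 3 fell in B16-F1R2 against B16-F1, beside 28.2% and 27.2% of all tested genes. The glycolytic mutases *Pgam2* and *Pgam1* rose by log2 differences of 1.06 and 0.73, and the mitophagy receptor *Bnip3l* rose by 0.79. *Bcl2l1*, an anti-apoptotic gene whose protein binds PGAM5, fell by 0.78 on the log2 scale, from 23.5 and 23.1 FPKM to 14.3 and 12.9 FPKM. The mitophagy receptor *Fundc1* (-0.63) and the stress sensor *Keap1* (-0.27) also fell; these 2 and *Pgam1* were named after their values were seen. The call of *Keap1* was lost without B16-F1 replicate 2 (adjusted p = 0.083) or B16-F1R2 replicate 2. Between B16-F1R2L and B16-F1, 5 of the 8 rose and 3 fell, beside 29.5% and 27.1% of all genes, with a median log2 difference of 0.34 (all genes, 0.017; -0.0014 for the 8 in B16-F1R2). The count of 5 was 3 with a minimum of 5 FPKM, after quantile normalization, or without B16-F1 replicate 2 or B16-F1R2L replicate 2.

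*Ywhaz* was measured at 169 and 164 FPKM in B16-F1, 185 and 199 FPKM in B16-F1R2, and 191 and 207 FPKM in B16-F1R2L. B16-F1 lay below both other lines, which overlapped each other. The mean of B16-F1R2 exceeded that of B16-F1 by 15.2% (log2 difference 0.20, SE 0.06, limma adjusted p = 0.025), and that of B16-F1R2L by 19.5% (log2 difference 0.26, SE 0.06, limma adjusted p = 0.010). B16-F1R2L differed from B16-F1R2 by 0.053 on the log2 scale, with a 95% interval of -0.089 to 0.19. This difference was 0.16 after rescaling to the same sum and 0.17 after quantile normalization. Under the same 2 settings B16-F1R2L exceeded B16-F1 by 0.36 and 0.42. The first call was lost without B16-F1 replicate 1 (adjusted p = 0.071), B16-F1 replicate 2 (0.13) or B16-F1R2 replicate 2 (0.11), and after rescaling to the same sum (0.068) or with no variance trend (0.059). The second was lost without B16-F1 replicate 2 (adjusted p = 0.066). Of the distinct 50-base stretches in its transcripts, 42.2% occurred elsewhere in the genome, at 3 places, so reads from a near-identical copy could not be told apart.

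Of 6 other tested genes of the 14-3-3 family, 3 fell and 1 rose in B16-F1R2 against B16-F1, beside 27.2% and 28.2% of all tested genes: *Ywhab* by -0.30, *Ywhah* by -0.17 and *Ywhaq* by -0.16, and *Ywhag*, named after its value was seen, by 0.15 on the log2 scale. *Ywhab* was measured at 164 and 158 FPKM in B16-F1, 131 and 130.3 FPKM in B16-F1R2, and 129 and 130.01 FPKM in B16-F1R2L. Leaving out B16-F1 replicate 1, B16-F1 replicate 2 or B16-F1R2 replicate 2, or fitting no variance trend, left 1 gene that fell. None rose when any 1 of the 4 libraries compared was left out, after rescaling, with no variance trend or with the replicate block. *Ywhab*, *Ywhah* and *Ywhaq* also fell in B16-F1R2L against B16-F1, by -0.31, -0.27 and -0.27 (all genes, 27.1% lower). The call of *Ywhaq* was lost there after quantile normalization (adjusted p = 0.095), and that of *Ywhag* in B16-F1R2 after rescaling (0.055).

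*Tbp*, the least abundant of the 8 per length, was measured at 13.0 and 12.7 FPKM in B16-F1, 10.9 and 10.95 FPKM in B16-F1R2, and 11.8 and 11.3 FPKM in B16-F1R2L. It was the reverse of *Hprt* in order, with B16-F1 highest and B16-F1R2 lowest, and no 2 lines overlapped. The mean of B16-F1R2 differed from that of B16-F1 by -15.1% (log2 difference -0.23, SE 0.06, limma adjusted p = 0.013). This call was lost without B16-F1 replicate 1 (adjusted p = 0.071), B16-F1 replicate 2 (0.0501) or B16-F1R2 replicate 1 (0.055). The log2 difference of B16-F1R2L from B16-F1 was -0.15 (limma adjusted p = 0.057), which passed with no filter, a minimum of 5 FPKM, median ratio scaling or quantile normalization. That from B16-F1R2 was 0.08 (limma adjusted p = 0.33). After rescaling to the same sum the 2 differences of B16-F1R2L, from B16-F1 and from B16-F1R2, were -0.051 and 0.19. After quantile normalization they were -0.22 and 0.012. The fewest reads per kilobase of the 8 were estimated for *Tbp*, 138 at its lowest value, against 1177 for *Hprt* and 59870 for *Ppia*.

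TFIID, the complex in which the TATA-binding protein sits, had 13 further subunits tested, of which 4 rose and 2 fell in B16-F1R2 against B16-F1, a share below the 55.4% called among all genes. *Taf12* rose by 0.41 on the log2 scale, followed by *Taf13* (0.27), *Taf6* (0.18) and *Taf9* (0.17), the last 3 named after their values were seen. *Taf8* fell by 0.32 and *Taf11* by 0.27. Without B16-F1 replicate 2, 1 rose and 1 fell. Without B16-F1 replicate 1 the counts were 2 and 1, without B16-F1R2 replicate 1 they were 1 and 1, and without B16-F1R2 replicate 2, 1 in place of 2 fell. With no filter 2 in place of 4 rose, and with no variance trend 1 did. The calls of *Taf13*, *Taf6*, *Taf9*, *Taf8* and *Taf11* were each lost with at least 1 library left out (adjusted p at most 0.21), that of *Taf13* also after rescaling and that of *Taf9* after median ratio scaling. Between B16-F1R2L and B16-F1, 3 subunits rose and 1 fell (all genes, 29.5% and 27.1%), with 1 rising without B16-F1 replicate 2 or B16-F1R2L replicate 2, and 2 falling after median ratio scaling or with no variance trend and 3 after quantile normalization.

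*Polr2a* was measured at 43.3 and 45.3 FPKM in B16-F1, 38.7 and 44.8 FPKM in B16-F1R2, and 41.5 and 40.7 FPKM in B16-F1R2L. B16-F1R2 overlapped both other lines, and its 2 libraries lay farther apart than those of the other lines. The log2 difference from B16-F1 was -0.089 in B16-F1R2 (95% interval -0.27 to 0.088, limma adjusted p = 0.34) and -0.11 in B16-F1R2L (95% interval -0.28 to 0.071, limma adjusted p = 0.26). The second of these was -0.0033 after rescaling to the same sum and -0.040 after quantile normalization. The difference of B16-F1R2 was -0.19 without B16-F1R2 replicate 2 and 0.016 without B16-F1R2 replicate 1.

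Most other subunits of RNA polymerase II rose in B16-F1R2. Of 11 tested, 8 rose and none fell against B16-F1, beside 28.2% and 27.2% of all tested genes, with a median log2 difference of 0.26 beside 0.0046 for all genes, and 7 to 11 rose over the 16 alternatives. *Polr2k* rose from 52.8 and 62.7 FPKM to 95.03 and 89.1 FPKM (log2 difference 0.68, limma adjusted p = 7.7e-04). *Polr2d* rose by 0.46 and *Polr2f* by 0.33. In B16-F1R2L against B16-F1, 3 rose (*Polr2k*, *Polr2c* and *Polr2l*) and 1 fell (*Polr2e*), beside 29.5% and 27.1% of all genes, the last 3 named after their values were seen. Rescaling to the same sum or quantile normalization made 5 rise and none fall, none fell with no filter or no variance trend, and *Polr2e* was no longer called without B16-F1 replicate 1, B16-F1 replicate 2 or B16-F1R2L replicate 2 (adjusted p at most 0.16). Between B16-F1R2L and B16-F1R2, 7 fell (all genes, 10.5%), but 0 to 4 with any 1 library left out, and none without B16-F1R2 replicate 1 or B16-F1R2L replicate 2 or with no variance trend. With no filter or after rescaling 3 fell, and after quantile normalization 4.

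*Actb*, second to *Ppia* in level per length, was measured at 1183 and 1234 FPKM in B16-F1, 1105 and 1134 FPKM in B16-F1R2, and 1054 and 1011 FPKM in B16-F1R2L. The lines did not overlap, with B16-F1 highest and B16-F1R2L lowest, but B16-F1R2L did not pass against B16-F1R2. That log2 difference was -0.12 (limma adjusted p = 0.16), and it was 0.060 after quantile normalization. The mean of B16-F1R2L differed from that of B16-F1 by -14.6% (log2 difference -0.23, SE 0.05, limma adjusted p = 0.011). This call was lost without B16-F1 replicate 1 (adjusted p = 0.0504), B16-F1 replicate 2 (0.11) or B16-F1R2L replicate 2 (0.061), and after rescaling to the same sum (0.058) or quantile normalization (0.15). The log2 difference of B16-F1R2 from B16-F1 was -0.11 (95% interval -0.24 to 0.017, limma adjusted p = 0.12), and passed after quantile normalization (-0.14, adjusted p = 0.031). Of its 50-base stretches, 12.4% occurred elsewhere in the genome, at 18 places.

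Of 17 tested genes of actin and actin dynamics, 5 rose and 7 fell in B16-F1R2 against B16-F1, beside 28.2% and 27.2% of all tested genes. *Tmsb10*, a thymosin that binds actin monomers, rose from 1642 and 1635 FPKM to 4246 and 3992 FPKM. *Tmsb4x*, the related thymosin beta 4 with processed copies among which reads may be split, was measured at 12.1 and 9.72 FPKM in B16-F1, 0.348 and 0.163 FPKM in B16-F1R2, and 0.690 and 0.295 FPKM in B16-F1R2L. *Actg2*, the enteric smooth muscle actin, was listed at 0.0685 and 0 FPKM in B16-F1 and at 5.33 and 3.80 FPKM in B16-F1R2. These 2 genes were below 1 FPKM in both libraries of at least 1 line and were tested only through the lines where they were high, so they had to differ. Of the 15 genes left without them, 4 rose and 6 fell. *Pfn2* (1.14), *Actr3* (0.27) and *Mkl1* (0.23) were the other genes that rose on the log2 scale, named after their values were seen. The call of *Mkl1* was lost without any 1 of the 4 libraries compared (adjusted p at most 0.16) and under all 3 other scalings. Without B16-F1 replicate 1, 3 genes in place of 7 fell, and without B16-F1 replicate 2, 4 fell. Between B16-F1R2L and B16-F1, 3 rose and 8 fell (2 and 7 without *Tmsb4x* and *Actg2*), beside 29.5% and 27.1% of all genes, with 7 rising after rescaling and 5 after quantile normalization, and 5 or 4 falling without B16-F1 replicate 1 or 2. *Actg1*, the cytoplasmic gamma-actin and nearest relative of *Actb*, differed by 0.08 and was not called; it was named after its value was seen.

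*Ppia* was the most abundant of the 8 at 5070.5 and 5067 FPKM in B16-F1, 5318 and 4879 FPKM in B16-F1R2, and 4729.7 and 4735 FPKM in B16-F1R2L. B16-F1R2 had the widest gap between libraries and overlapped B16-F1, while B16-F1R2L lay below both. Neither B16-F1R2 (log2 difference 0.0071, 95% interval -0.17 to 0.18, limma adjusted p = 0.94) nor B16-F1R2L (-0.099, 95% interval -0.28 to 0.078, limma adjusted p = 0.29) passed against B16-F1. After quantile normalization both differences from B16-F1 were 0.13 and passed (adjusted p = 0.012 each). The transcripts of *Ppia* shared 61.9% of their 50-base stretches with 41 other places in the genome, the highest share of the 8. Reads from those places could not be told apart from reads of *Ppia*.

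Of 14 other tested cyclophilins, 8 rose and 3 fell in B16-F1R2 against B16-F1, beside 28.2% of all tested genes higher and 27.2% lower, with a median log2 difference of 0.27 (all genes, 0.0046). *Ppid*, the partner of Hsp90, was measured at 67.7 and 66.6 FPKM in B16-F1, 98.3 and 98.4 FPKM in B16-F1R2, and 80.2 and 80.4 FPKM in B16-F1R2L, the order of lines seen for *Hprt*. The nuclear cyclophilins *Ppig* and *Ppil4* rose by 0.78 and 0.52. *Ppic* (-0.46), *Ppil1* (-0.38) and *Ppib* (-0.24) fell and were named after their values were seen. In B16-F1R2L against B16-F1, 6 rose and 4 fell (all genes, 29.5% and 27.1%), with 3 rising when B16-F1R2L replicate 2 was left out.

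**Figure D3:**
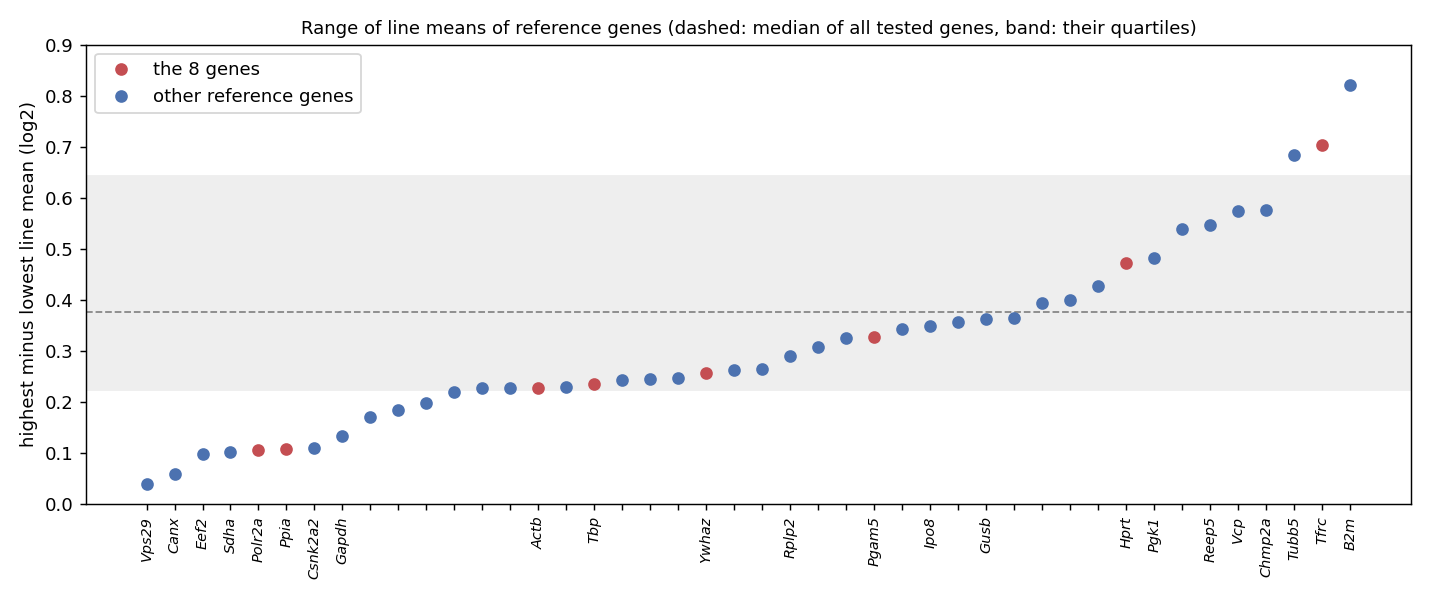
Highest minus lowest line mean (log2) of the 8 genes in red and of 36 other reference genes in blue, sorted from left to right, with the genes named in the text labelled. The dashed line marks the median of all 11379 tested genes (0.38) and the grey band their quartiles (0.22 to 0.64), below which lie *Polr2a* and *Ppia* of the 8, and above which lies *Tfrc* of the 8.

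To place the 8 among references in wider use, the range of the line means was taken for 36 further genes of qPCR panels. On the log2 scale, the range was 0.11 for *Polr2a* and *Ppia*, 0.23 for *Actb* and *Tbp*, 0.26 for *Ywhaz*, 0.33 for *Pgam5*, 0.47 for *Hprt* and 0.70 for *Tfrc*. The median was 0.25 for the 8, which include *Hprt* whose difference chose the set, 0.28 for the 36 and 0.38 for all tested genes. The median SD within lines was 0.044 for the 8, 0.045 for the 36 and 0.076 for all tested genes. A range of means also widens with such spread, and its part in these medians was not tested. Of all tested genes, 61.9% had a smaller range than *Hprt*. The narrowest of the 36 were *Vps29* (0.039), *Canx* (0.057), *Eef2* (0.097), *Sdha* (0.10) and *Csnk2a2* (0.11). *Vps29*, a retromer subunit, was measured at 133 and 131 FPKM in B16-F1, 135 and 128 FPKM in B16-F1R2, and 128 and 129 FPKM in B16-F1R2L, with B16-F1R2 overlapping both other lines. The widest were *B2m* (0.82), *Tubb5* (0.68), *Chmp2a* (0.57), *Vcp* (0.57) and *Reep5* (0.55). *B2m*, the light chain of MHC class I, was measured at 341 and 330.1 FPKM in B16-F1, 459 and 446 FPKM in B16-F1R2, and 583 and 602 FPKM in B16-F1R2L. *Tubb5*, a beta-tubulin, fell from 783 FPKM in each library of B16-F1 to 521 and 519 FPKM in B16-F1R2.

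Among glycolytic references, *Gapdh* was measured at 1938 and 2009 FPKM in B16-F1, 2144 and 2063 FPKM in B16-F1R2, and 1922 and 1915 FPKM in B16-F1R2L, and no comparison passed. *Pgk1* rose in B16-F1R2 (log2 difference 0.48, limma adjusted p = 7.9e-04) and in B16-F1R2L (0.39, limma adjusted p = 0.0020), with 1425 and 1445 FPKM in B16-F1 and 1836 FPKM or more in each library of the other lines. The lysosomal *Gusb* fell by 0.27 in B16-F1R2 and by 0.36 in B16-F1R2L, and the nuclear import gene *Ipo8* fell by 0.35 and by 0.28. The call of *Ipo8* in B16-F1R2L was lost after rescaling (adjusted p = 0.082). The ribosomal *Rplp2* fell by 0.21 in B16-F1R2L against B16-F1, a call lost when any 1 of the 4 libraries compared was left out (adjusted p at most 0.18). Its log2 difference in B16-F1R2 was 0.08 and did not pass.

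Of the 36, 5 rose and 11 fell in B16-F1R2 against B16-F1, beside 55.4% of all genes called, with a median log2 difference of -0.047, and 7 fell without B16-F1 replicate 1, B16-F1 replicate 2 or B16-F1R2 replicate 2. Against B16-F1, 4 rose and 20 fell in B16-F1R2L (median -0.21, beside 0.017 and 56.7% called for all genes), and 13 fell when either B16-F1 library was left out, with 2 rising without B16-F1 replicate 1. Against B16-F1R2, 1 rose and 8 fell in B16-F1R2L (median -0.14, beside 0.022 and 22.6% called for all genes), and 0 to 4 fell when any library but B16-F1R2 replicate 2 was left out. These splits move with the scale. When libraries were rescaled to the same sum, the median of all genes moved to 0.12 in B16-F1R2L against B16-F1 and to 0.13 against B16-F1R2. The share of the called reference genes that was higher in B16-F1R2L was then 28.6% in place of 16.7% against B16-F1. Against B16-F1R2 it was 50% in place of 11.1%, or 66.7% after quantile normalization. Over all called genes these shares were 66.6% in place of 52.1% and 81.0% in place of 53.7%.

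**Figure D4:**
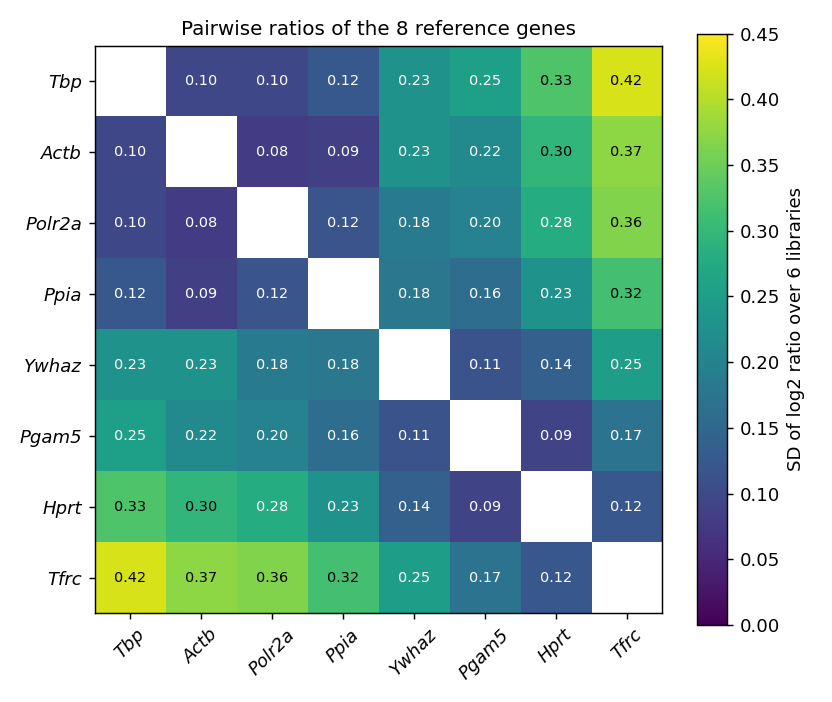
Standard deviation of the log2 ratio of each pair of the 8 genes over the 6 libraries, with dark colours for tight pairs. *Tbp*, *Actb*, *Polr2a* and *Ppia* form pairs of 0.08 to 0.12, whereas *Tbp* with *Tfrc* reaches 0.42.

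A ratio of 2 genes within a library does not depend on the scale of that library, so the spread of such ratios was described for all 28 pairs. The tightest pair was *Actb* and *Polr2a*, with an SD of the log2 ratio of 0.080 over the 6 libraries, followed by *Actb* and *Ppia* (0.086) and *Hprt* and *Pgam5* (0.092). The widest was *Tbp* and *Tfrc* (0.42). *Hprt* varied little against *Tfrc* (0.12) and *Ywhaz* (0.14), and more against *Ppia* (0.23), *Polr2a* (0.28), *Actb* (0.30) and *Tbp* (0.33). Averaged over its 7 pairs, the SD was 0.17 for *Pgam5* and *Ppia*, 0.19 for *Polr2a* and *Ywhaz*, 0.20 for *Actb*, 0.21 for *Hprt*, 0.22 for *Tbp* and 0.29 for *Tfrc*. This average depends on which other genes are in the set, and the 6 libraries come from 3 lines. The geometric mean of the 8 genes was 129.0 and 129.3 FPKM in B16-F1, 143 and 145 FPKM in B16-F1R2, and 134 and 135 FPKM in B16-F1R2L. Its log2 difference from B16-F1 was 0.16 in B16-F1R2 and 0.058 in B16-F1R2L. These differences were 0.12 and 0.022 with *Hprt* left out.

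**Figure D5:**
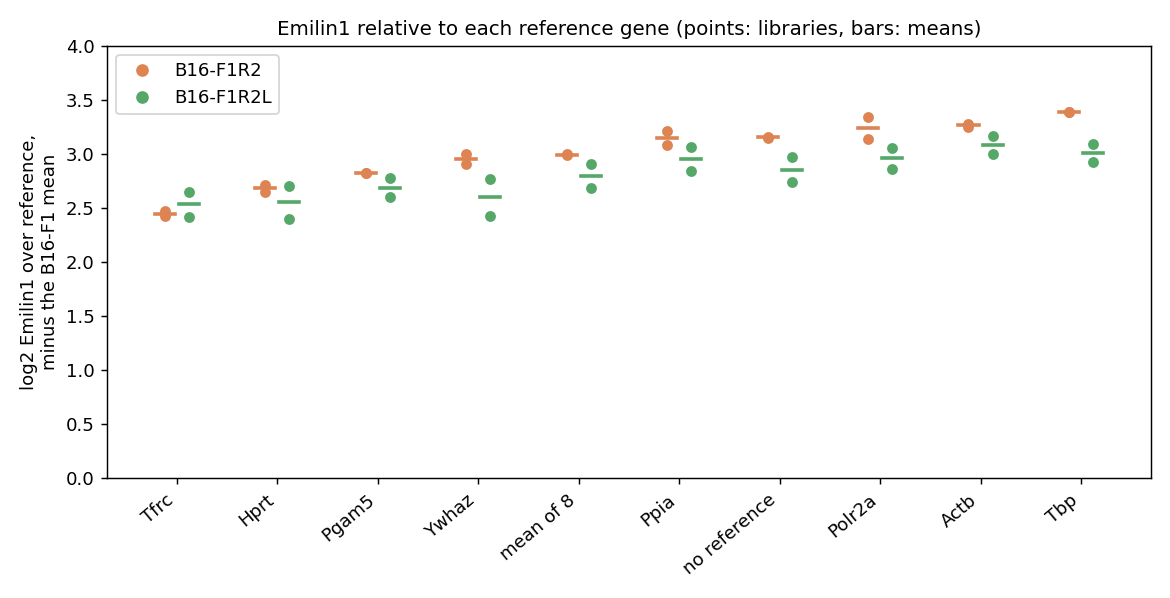
Log2 of *Emilin1* over each reference, minus the B16-F1 mean, with 1 point per library and bars at line means; "no reference" is the deposited FPKM scale. The B16-F1R2 bars run from 2.45 over *Tfrc* to 3.39 over *Tbp*, with *Hprt* at 2.68.

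*Emilin1*, the matrix glycoprotein gene that the study measured by qPCR against *Hprt*, shows what the choice of reference does to a ratio. It was measured at 4.50 and 4.41 FPKM in B16-F1, 40.3 and 40.6 FPKM in B16-F1R2, and 35.5 and 30.4 FPKM in B16-F1R2L. Per 1000 FPKM of *Hprt*, it stood at 46.0 and 47.4 FPKM in B16-F1, 299 and 313 FPKM in B16-F1R2, and 310.4 and 251 FPKM in B16-F1R2L. On the log2(FPKM + 0.1) scale the difference of B16-F1R2 from B16-F1 was 3.15, or 8.90-fold, as deposited. Over *Hprt* it was 2.68, or 6.42-fold. The references higher in B16-F1R2 gave smaller ratios, 5.46-fold over *Tfrc*, 7.10-fold over *Pgam5* and 7.73-fold over *Ywhaz*. The fold was 8.86 over *Ppia*, 9.47 over *Polr2a*, 9.61 over *Actb* and 10.5 over *Tbp*, and 7.97 over the geometric mean of the 8. *Emilin1* was thus higher in B16-F1R2 over each of the 8 references, and in both libraries. In B16-F1R2L against B16-F1 the fold was 5.86 over *Hprt* and lay between 5.80 (*Tfrc*) and 8.48 (*Actb*) over the 8.

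Between the metastatic lines the ratio was lower in B16-F1R2L over 7 of the 8 references. The log2 difference of *Emilin1* in B16-F1R2L from B16-F1R2 was -0.30 as deposited and -0.13 over *Hprt*. It was -0.14 over *Pgam5*, -0.18 over *Actb*, -0.19 over *Ppia*, -0.28 over *Polr2a*, -0.35 over *Ywhaz* and -0.38 over *Tbp*. Over *Tfrc* it was 0.086, with overlapping libraries. The B16-F1R2L libraries lay 0.22 apart in *Emilin1* on the log2 scale, and over *Hprt* they fell on either side of the B16-F1R2 mean.

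The chromosomal neighbourhood of *Hprt* was described next. Only genes whose symbol had 1 annotated position were used (86.5% of 23951), and other tested genes were passed over. The 10 nearest tested genes, between 46362884 and 50973585 (NCBIM37), had a median log2 difference of 0.047 in B16-F1R2 against B16-F1, beside -0.0072 for 333 tested genes of the chromosome. Of these neighbours 2 were higher (*Mbnl3* and *Ccdc160*) and 1 was lower (*Mospd1*), beside 28.2% and 27.2% of all tested genes. Between B16-F1R2L and B16-F1, 4 were higher (also *Enox2* and *Fam122b*) and 1 was lower (*Cxx1b*), beside 29.5% and 27.1%; all 6 were named after their values were seen. *Ccdc160* was below 1 FPKM in both B16-F1 libraries and was tested only through the other lines. In B16-F1R2 against B16-F1 the neighbours of *Tbp* had a median of -0.32 and the 527 such genes of chromosome 17 one of -0.34, with *Tbp* itself at -0.23. In B16-F1R2L these values were -0.27, -0.34 and -0.15. The neighbours of *Ywhaz* had a median of 0.25 in B16-F1R2 and 0.41 in B16-F1R2L, beside 0.10 and 0.11 over chromosome 15. Neighbours of *Tfrc* had a median of 0.026 in B16-F1R2 against B16-F1, where *Tfrc* differed by 0.70, and those of *Actb* one of -0.26, where *Actb* differed by -0.11. For *Pgam5* the neighbours stood at 0.14, for *Polr2a* at 0.067 and for *Ppia* at 0.066. Against B16-F1, neighbours of *Polr2a* had a median of 0.18 in B16-F1R2L, where *Polr2a* differed by -0.11.

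The genes whose centred log2 values lay nearest to those of *Hprt* over the 6 libraries were *Nop14* (distance 0.033), *Snrpd1* (0.061), *Nap1l1* (0.067), *Leo1* (0.071) and *Ola1* (0.071). *Nop14*, of ribosome assembly, was measured at 26.9 and 25.8 FPKM in B16-F1, 36.7 and 35.5 FPKM in B16-F1R2, and 31.4 and 32.7 FPKM in B16-F1R2L. *Snrpd1*, a core protein of the spliceosome, was measured at 108 and 98.1 FPKM, 148 and 139 FPKM, and 122 and 129 FPKM in the same order. With 6 libraries of 3 lines, many genes can share such an order, and the distances are a description only.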

How the data were processed

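The 8 reference genes and all gene lists were chosen with earlier results of these data known. PolyA+ RNA was sequenced in stranded libraries as single-end reads of 50 bases. The authors aligned the reads to mm9 with TopHat2 2.0.10 and Bowtie 1.0.0, allowing 2 mismatches and 20 positions per read. The deposited FPKM table of 23951 genes holds gene-level values, and Cuffnorm is named in the submitters' processing notes with no role; the authors used DESeq2 for their own differential expression, which is not used here; the annotation is not given in the sources used here. Since FPKM are not counts, no count model was run, and a read that fits many copies of a gene can shift its level.

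Genes with at least 1 FPKM in 2 libraries were tested with limma 3.58.1 (R 4.3.3) on log2(FPKM + 0.1), with all 6 libraries, 1 mean per line, a variance trend and Benjamini-Hochberg adjustment over 11379 genes. The fit was tested on simulated data. Fold changes of low genes are understated on this scale. Coordinates came from GENCODE on NCBIM37 and promoters from RefSeq on GRCm38.p6. Named genes were the 8, *Emilin1*, the 5 widest and 5 narrowest other references with those of a commercial panel, up to 3 called genes per list with the largest change in B16-F1R2 against B16-F1, and the 5 nearest to *Hprt*. Replicate numbers were not used as a block, since deviations of same-numbered libraries correlated between -0.10 and 0.079. Alternatives covered the pseudocount, the filter, scaling, the variance trend, the libraries fitted, the block and each library left out; counts for pathway lists were added after seeing the data. Some reference genes of the panel are counted but not reported singly here.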

Additional observations from a re-analysis of the deposited data

How the results depend on the processing

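*Tfrc* kept its direction and its call under all 16 alternatives in the 3 comparisons, and *Pgam5* did so in B16-F1R2 against B16-F1. Rescaling to the same sum and quantile normalization gave log2 differences of 0.407 and 0.415 for *Hprt* in B16-F1R2L against B16-F1, and of -0.0586 and -0.0993 against B16-F1R2. Under them *Ppia* in B16-F1R2L against B16-F1 turned to 0.0037 and 0.129. Against B16-F1R2, rescaling turned *Ppia* to 0.0023 and *Polr2a* to 0.091, and quantile normalization turned *Actb* to 0.060 and *Polr2a* to 0.014. Between B16-F1R2L and B16-F1R2, 2 of the 7 tested genes passed with a pseudocount of 0.01, a filter at 5 FPKM or median ratio scaling. With no filter, 1666 of all genes and 4 of the 36 other references passed there, and 4 passed with no trend or with only the 4 libraries compared. Apart from tests with fewer genes or libraries, the cause was not tested.

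With 1 library left out, the lone library of its line is assumed to vary like the others. In B16-F1R2 against B16-F1, *Ppia* then ranged from -0.055 to 0.069 and *Polr2a* from -0.19 to 0.016, and 2 to 4 of the 7 passed. In B16-F1R2L against B16-F1, 1 to 4 of the 7 and 15 to 24 of the 36 passed. In B16-F1R2L against B16-F1R2, *Ywhaz* ranged from -0.0055 to 0.11 and *Polr2a* from -0.12 to 0.088, and 1 to 10 of the 36 and 472 to 1966 of all genes passed. A fit with the replicate number as a block called 6181, 6330 and 2321 genes in the 3 comparisons, and 4, 4 and 1 of the 7; same-numbered libraries shared a number only. *Tbp* had the fewest estimated reads per kilobase, and with 2 libraries per line a log2 difference of 0.1 was smaller than the half-width of the 95% interval of each of the 7 tested genes except *Tfrc*.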
